A study of Mus musculus with 4 samples.

Results

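The angiopoietin-Tie axis was examined through 5 genes chosen by name and not by their values: the receptor genes Tek (the receptor also known as Tie2) and Tie1, the ligand genes Angpt1 and Angpt2, and Ptprb, which encodes the receptor phosphatase VE-PTP. All 5 were present among the 20076 gene rows measured by single-cell RNA-seq of dissociated whole mouse lung. Samples came from 2 WT mice (ERG fl/fl, floxed Erg alleles without Cre) and 2 ERG CKO mice (CDH5-CreER(T):ERG fl/fl), in which a Cre recombinase driven by the Cdh5 promoter is switched on by tamoxifen in endothelial cells (ECs). All 4 mice received tamoxifen, 0.5 mg on each of 5 days, and their lungs were taken 90 days afterwards. The line was kept on a C57/BL6 background, and the age of these mice was not given in the sources used here. Cre was present in the ERG CKO mice alone, so the loss of Erg and the presence of active Cre cannot be told apart. The question addressed was how the receptors, the ligands and the phosphatase of this axis were distributed over lung cell types, and where their levels differed between WT and ERG CKO.

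The 4 libraries held 9363 cells, between 1852 and 3097 each, with 11263911 to 18646776 unique molecular identifiers (UMIs, one per captured RNA molecule) and a median of 4611 to 4899 UMIs per cell. Each library came from 1 mouse, so p-values measure the spread between these mice and their libraries. Cells were clustered without the 5 genes and named by fixed markers, which gave 502 to 741 ECs per library with all 8 EC markers detected. Levels are given as UMIs summed over the cells of a class in 1 library and expressed as counts per 1000000 UMIs of that class (CPM). Erg itself was at 85.9 and 87.9 CPM in WT ECs and at 106 and 81.5 CPM in ERG CKO ECs, and the groups overlapped (log2 fold change 0.08 ± 0.16, adjusted p = 0.872). Where the reads of Erg lie relative to its deleted part was not given in the sources used here, so the Erg level neither showed nor checked the deletion. Cell barcodes found in more than 1 library numbered 7. Each genotype had 1 library with Xist UMIs and 1 with Ddx3y UMIs in its ECs. Summed levels of 5 erythroid markers in ECs were 34.9 and 50.8 CPM in WT and 1548 and 2208 CPM in ERG CKO, and those of 7 platelet markers were 57.2 and 124 CPM in WT and 300 and 177 CPM in ERG CKO. With 2 mice per genotype an exact permutation test cannot go below p = 0.333, so differences were tested with edgeR's quasi-likelihood model across all genes of a class, with Benjamini-Hochberg adjustment.

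By way of background, Angpt1 and Angpt2 are secreted proteins that bind the same receptor tyrosine kinase, Tek, on the surface of ECs. Angpt1, made mainly by perivascular and other mesenchymal cells, activates Tek and favours a quiescent, tight endothelium, whereas Angpt2, which ECs store and release when activated, acts as a weaker, context-dependent ligand that can oppose Angpt1. Tie1 binds neither ligand with high affinity and modulates signalling through Tek. Ptprb removes phosphate from Tek and from partners of VE-cadherin. ERG is an ETS transcription factor of ECs, and gCap and aCap ECs are the general capillary cells and the aerocytes of the alveolar wall.

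In the GENCODE M21 annotation of GRCm38 (the genome called mm10), Tek lies on the plus strand of chr4:94739289-94874976 and Tie1 on the minus strand of chr4:118471191-118490061. Angpt1 lies on the minus strand of chr15:42424723-42676977, Angpt2 on the minus strand of chr8:18690263-18741562 and Ptprb on the plus strand of chr10:116275523-116389535. Angpt2 overlaps Mcph1, a gene on the opposite strand whose EC levels were 5.20 and 5.02 CPM in WT and 8.03 and 9.30 CPM in ERG CKO (log2 fold change 0.71 ± 0.33 SE, adjusted p = 0.344). Angpt1 overlaps the antisense gene Gm17473, which was in the matrix but was too low to be tested in ECs. Whether counting used strand was not given in the sources used here, so reads within such overlaps are uncertain.

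Promoter sequence was read for Tek and Tie1, the 2 members found in the RefSeq promoter table of GRCm38.p6, because ETS factors such as ERG bind DNA around the core GGAA. The 250 bases before each RefSeq start were searched for GGAA on both strands (TTCC is the same core read from the other strand), and for the longer forms AGGAAG and CGGAAG, which contain it. Tek held 2 core matches and neither longer form. Tie1 held 7 core matches, with 1 AGGAAG and 1 CGGAAG. Of 32851 promoters of the same length, 93.4% held the core, 29.5% held AGGAAG and 13.6% held CGGAAG, so a core match is the common state of a promoter and describes letters, not a bound site. Windows of 30 bases around both Tek matches and around matches of Tie1 are shown, 5′ to 3′ along the gene, with every core in capitals. The Tek windows are chr4:94739187-94739216 and chr4:94739217-94739246 on the plus strand. The Tie1 windows are chr4:118490064-118490093, which holds the CGGAAG form, and chr4:118489913-118489942, both on the minus strand. RefSeq places the start of Tie1 inside the gene as GENCODE M21 draws it, so the nearer Tie1 window lies within the GENCODE gene given above.
Tek, window farther from the start: gcttgttattcaaTTCCtggcctatgagag
Tek, window nearer to the start: gatacccctattgTTCCtgaaaatgctgac
Tie1, window farther from the start: cttctcaataggcGGAAgccactggcTTCC
Tie1, window nearer to the start: cccTTCCagagacTTCCaggccacacccat

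The receptors and the phosphatase were carried mainly by ECs, and the ligand genes by different classes. ECs held 71.0% and 83.7% of all Tek UMIs in the WT libraries and 74.5% and 82.7% in the ERG CKO libraries. For Tie1 the share in ECs was 73.4% and 82.7% in WT libraries and 71.0% and 81.7% in those of ERG CKO, and for Ptprb it was 70.7% and 82.8% in WT libraries and 71.3% and 79.9% in those of ERG CKO. These shares overlapped between genotypes for all 3 genes, while ECs made up 23.9% to 32.5% of the cells.

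Angpt1 UMIs lay in fibroblasts (45.4% and 31.8% in WT, 47.4% and 44.9% in ERG CKO) and in mural cells, the pericytes and smooth muscle cells of the vessel wall. The mural share of Angpt1 UMIs was 34.5% (95% Wilson interval 30.4% to 39.0%) and 36.9% (30.7% to 43.6%) in WT, against 11.3% (8.41% to 15.1%) and 7.63% (4.06% to 13.9%) in ERG CKO. Both ERG CKO libraries were below both WT libraries, and mural cells were also a smaller share of the cells there, 1.58% and 0.918% against 3.14% and 2.33%. With cells above 2000 UMIs thinned to that number and shallower cells kept, the mural share was 20.3% (14.6% to 27.5%) in WT 1 and 43.7% in WT 2. It was then 13.3% (8.46% to 20.2%) in ERG CKO 1 and 11.4% (4.95% to 24.0%) in ERG CKO 2. The order held, but the intervals of both ERG CKO libraries overlapped that of WT 1. The thinned fibroblast share was 51.4% and 19.5% for the WT libraries, then 37.5% and 22.7% for ERG CKO. In ERG CKO 2 fibroblasts a single cell held 24 of the 53 Angpt1 UMIs. Platelets, whose granules carry Angpt1, held 2.77% and 10.3% of its UMIs in WT and 11.6% and 9.32% in ERG CKO.

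The classes that held Angpt2 UMIs differed between genotypes. In WT, ECs held 28.0% (21.1% to 36.2%) and 56.9% (48.1% to 65.3%) of Angpt2 UMIs and mural cells 40.9% and 26.0%. In ERG CKO, ECs held 73.9% (70.0% to 77.4%) and 86.4% (82.7% to 89.4%), and mural cells 2.61% and 0.730%. The genotypes did not overlap in either class. Thinned to 2000 UMIs, the EC share was 42.9% and 57.1% for the WT libraries, then 64.2% and 79.4% for ERG CKO, and the mural share was 28.6% and 22.4%, then 2.07% and 0.645%. The thinned EC intervals of WT 1 (28.0% to 59.1%) and WT 2 (43.3% to 70.0%) overlapped that of ERG CKO 1 (57.3% to 70.7%). In WT 1 thinning turned the order of the classes, with mural cells above ECs before it and below them after it. These intervals cover counting error only, and with 2 libraries per group the shares are descriptions without a test.

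**Figure D1:**
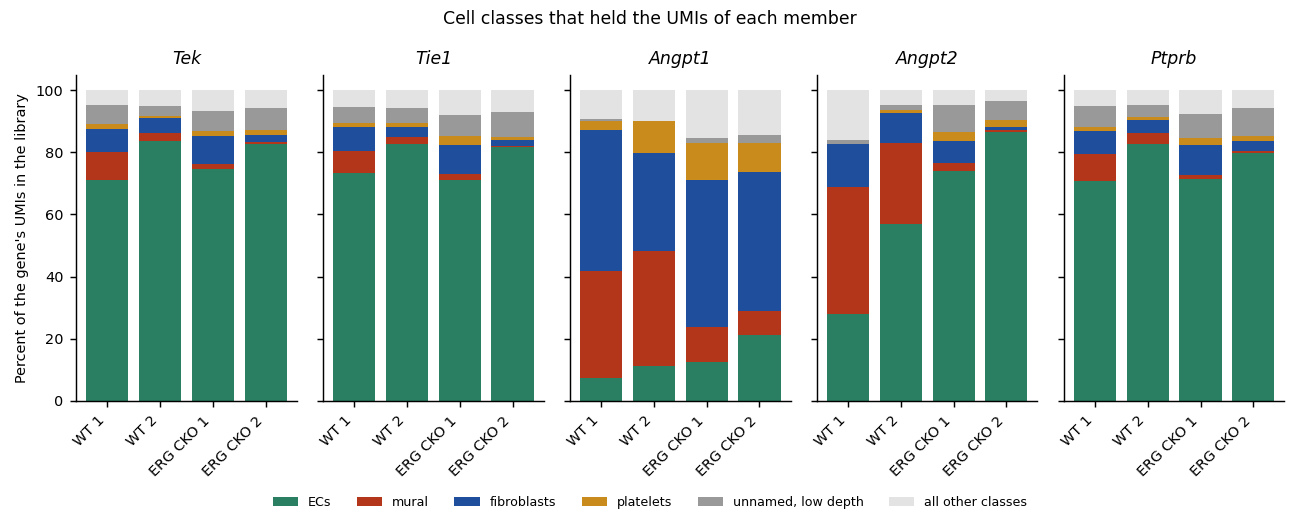
Stacked bars give, for each gene and library, the percent of the gene's UMIs that lay in each cell class (vertical axis, 0 to 100%). ECs fill most of the Tek, Tie1 and Ptprb bars in every library, whereas the EC part of the Angpt2 bar goes from 28.0% and 56.9% in WT up to 73.9% and 86.4% in ERG CKO, and the mural part of the Angpt1 bar from 34.5% and 36.9% to 11.3% and 7.63%.

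Within classes, Tek was at 511 and 532 CPM in WT ECs, at 329 and 209 CPM in WT mural cells, at 166 and 228 CPM in WT fibroblasts and at 6.78 and 1.70 CPM in WT T cells. Mural cells, fibroblasts and platelets each carried all 8 EC markers, with summed levels of 5545 to 8166 CPM in mural cells, 5062 to 6280 CPM in fibroblasts and 6638 to 9898 CPM in platelets, and the part of EC transcripts in the Tek, Tie1 and Ptprb values of these classes was not tested. Angpt1 followed another order, with 303 and 317 CPM in WT mural cells, 245 and 167 CPM in WT fibroblasts and 149 and 208 CPM in WT platelets. WT ECs had 12.6 and 7.53 CPM of Angpt1. NK cells had 26.1 and 20.9 CPM in WT and 16.9 and 17.6 CPM in ERG CKO, which exceeded the 0.424 to 1.95 CPM of T cells in every library. Angpt2 was at 101 and 128 CPM in WT mural cells, 20.7 and 29.4 CPM in WT fibroblasts and 13.8 and 22.0 CPM in WT ECs, where the fibroblast and EC values overlapped.

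**Figure D2:**
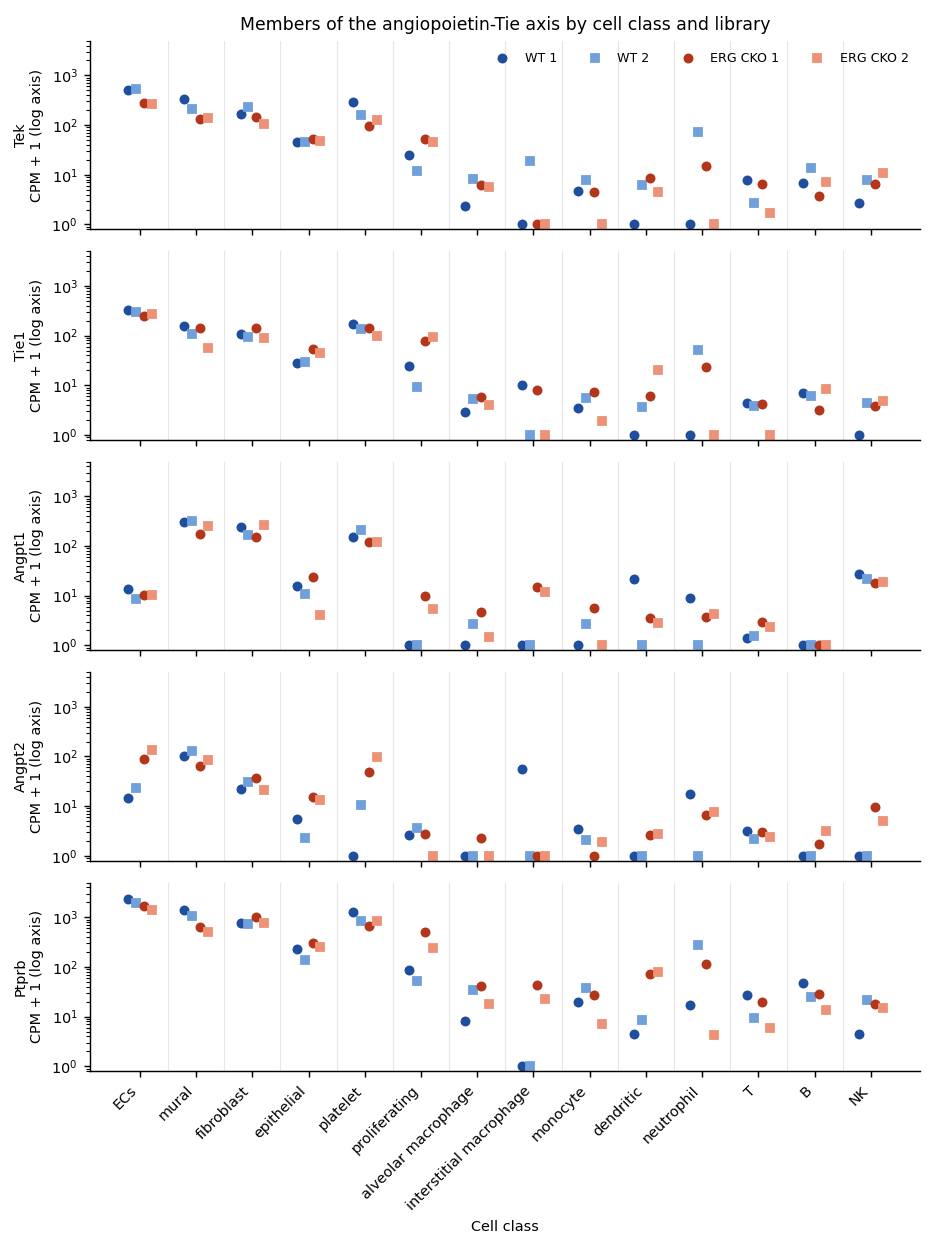
Each row plots 1 gene, with CPM plus 1 on a logarithmic axis against cell class, and each point is 1 library (blue, WT; red, ERG CKO). Tek, Tie1 and Ptprb peak in ECs, Angpt1 peaks in mural cells, fibroblasts and platelets, and the ERG CKO points of Angpt2 in ECs (86.0 and 132 CPM) stand above the WT points (13.8 and 22.0 CPM).

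In ECs as a whole, Tek fell and Angpt2 rose in ERG CKO, while the other 3 members did not pass the test. Of all 10696 genes tested in ECs, 2.99% passed (1.79% higher and 1.21% lower in ERG CKO), against 2 of the 5 members. Tek, the receptor, was at 511 and 532 CPM in WT (1374 and 1696 UMIs) and at 282 and 266 CPM in ERG CKO (1298 and 715 UMIs), means of 521 ± 15.2 and 274 ± 11.1 (SD, n = 2). Both ERG CKO libraries lay well below both WT libraries, and the log2 fold change was −0.96 ± 0.13 (SE, adjusted p = 0.0140). Leaving out either WT library moved the adjusted p past the threshold (0.0642 without WT 1, 0.0650 without WT 2) with the fold change at −0.99 and −0.94.

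Angpt2, the context-dependent ligand, was at 13.8 and 22.0 CPM in WT ECs (37 and 70 UMIs) and at 86.0 and 132 CPM in ERG CKO ECs (396 and 355 UMIs). Every ERG CKO value exceeded every WT value, the ratio of the pooled levels was 5.66 (95% counting interval 4.61 to 6.99), and the log2 fold change was 2.54 ± 0.27 (SE, adjusted p = 0.00760). Neither call held when ECs were picked cell by cell from 4 markers (UMIs of at least 2 of them and none of Ptprc) instead of from clusters (Tek −0.87, adjusted p = 0.0837; Angpt2 2.07, adjusted p = 0.0651), a setting in which no gene at all passed. The erythroid and platelet levels given above moved with genotype in these cells. After ECs with more than 20 haemoglobin UMIs were removed, and separately after ECs carrying a Pf4 or Ppbp UMI were removed, both genes still passed.

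Tie1, the partner receptor, was at 327 and 296 CPM in WT ECs and at 248 and 269 CPM in ERG CKO ECs. These groups did not overlap, but the log2 fold change of −0.31 ± 0.13 did not pass (adjusted p = 0.277). Ptprb, the phosphatase, was at 2283 and 1947 CPM in WT and at 1705 and 1396 CPM in ERG CKO, again without overlap, with a log2 fold change of −0.48 ± 0.16 that did not pass (adjusted p = 0.166). Without ERG CKO 1 the Ptprb value was −0.67. With the shared replicate number added to the model Ptprb passed in ECs, as given in the closing section. Angpt1, the activating ligand, had only 24 to 43 UMIs per library in ECs, at 12.6 and 7.53 CPM in WT and 9.34 and 9.30 CPM in ERG CKO, and its value of −0.13 ± 0.33 (adjusted p = 0.903) changed sign without WT 1.

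**Figure D3:**
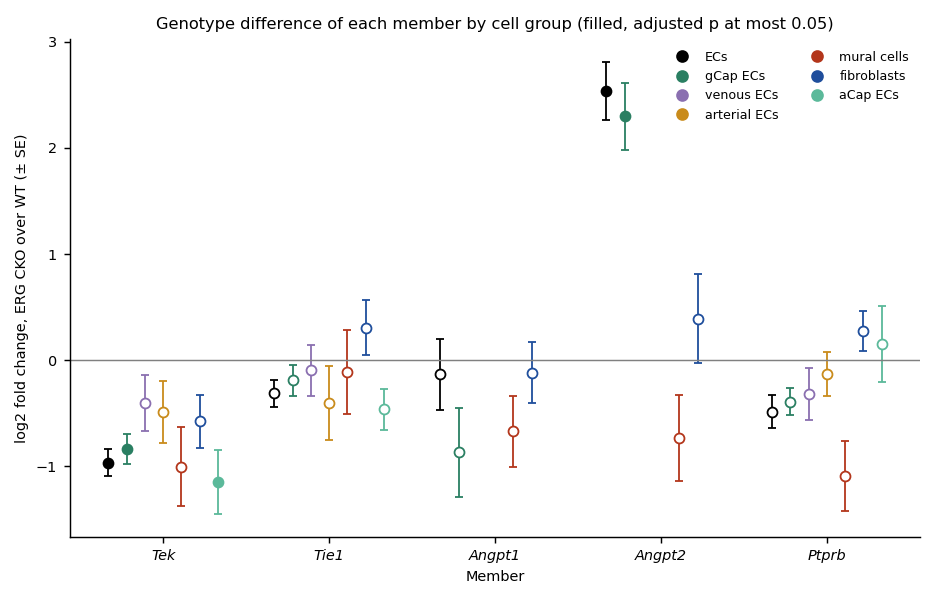
Points give the log2 fold change of ERG CKO over WT from edgeR with its standard error for each gene and cell group, and filled points have an adjusted p of at most 0.05. Tek is below 0 and filled in ECs, gCap ECs and aCap ECs, and Angpt2 is filled at 2.54 in ECs and 2.30 in gCap ECs; the value of Angpt2 in aCap ECs is left out because no WT aCap cell had an Angpt2 UMI.

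The share of ECs with at least 1 UMI gave the same order. In WT 82.3% and 84.5% of ECs had a Tek UMI, compared with 63.3% and 51.8% in ERG CKO. For Angpt2 these shares were 4.69% and 8.15% in WT, compared with 25.9% and 33.5% in ERG CKO. In T cells, which should lack both genes and had median depths of 5878 to 6387 UMIs against 4009 to 5433 in ECs, Tek was found in 0.437% to 2.06% of cells and Angpt2 in 0.755% to 1.32%. At an equal depth of 1000 UMIs per cell (shallower ECs dropped, 5 and 8 from WT, then 9 and 8 from ERG CKO), Tek was detected in 39.6% and 42.0% of WT against 20.9% and 21.5% of ERG CKO ECs, and Angpt2 in 0.876% and 3.18% of WT against 7.10% and 8.70% of ERG CKO ECs. Angpt1 was detected in 2.72% to 4.58% of ECs over the 4 libraries and in 0.265% to 1.14% of T cells.

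In gCap ECs, the largest EC group with 299 to 482 cells per library, Tek fell and Angpt2 rose, against 3.25% of 9739 genes called (2.23% higher and 1.03% lower). Tek was at 623 and 666 CPM in WT and 373 and 366 CPM in ERG CKO, with a log2 fold change of −0.84 ± 0.14 (adjusted p = 0.0122). Angpt2 was at 13.7 and 28.2 CPM in WT and 80.1 and 138 CPM in ERG CKO, with a log2 fold change of 2.30 ± 0.32 (adjusted p = 0.00482). The genotypes did not overlap for either gene. Tie1 (347 and 322 against 277 and 325 CPM) and Ptprb (2597 and 2307 against 1984 and 1856 CPM) did not pass, at −0.19 and −0.39 with adjusted p = 0.646 and 0.172. The Ptprb value was −0.47 without ERG CKO 1, and Ptprb passed here too with the replicate number in the model. Tek lost its call without WT 2 (−0.80, adjusted p = 0.0568).

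The 4 clusters that made up gCap ECs each had Angpt2 above WT in ERG CKO. One of them, led by Igfbp3, Col13a1, Col15a1 and Esm1 and holding 22 and 27 WT cells against 61 and 48 ERG CKO cells, had the highest levels, 29.5 and 81.8 CPM in WT and 271 and 310 CPM in ERG CKO. Without that cluster, an alternative chosen after seeing the data, the fold changes in gCap ECs were −0.76 for Tek (adjusted p = 0.0279) and 2.03 for Angpt2 (adjusted p = 0.0215).

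In aCap ECs (43, 71, 106 and 95 cells, in the order WT 1, WT 2, ERG CKO 1 and ERG CKO 2), Angpt2 went from not detected to common. No Angpt2 UMI was found in the 43 and 71 WT cells, which allows a share of cells with a UMI of up to 6.98% and 4.23% and sets no limit on cells that express the gene, whereas 55.7% and 49.5% of ERG CKO aCap cells had one. The ERG CKO level was 175 and 164 CPM, from 119 and 93 UMIs. Pooled, it was 47.9-fold the level that 3 UMIs over both WT libraries would give, and the lower end of the 95% counting interval of the ratio was 38.6. In edgeR Angpt2 was called (adjusted p = 2.50e-07), but it entered this test through the ERG CKO libraries alone, so the call adds nothing to the counts. Tek was at 77.0 and 98.1 CPM in WT and 47.1 and 33.5 CPM in ERG CKO aCap cells, without overlap, from 19 to 51 UMIs per library. Its log2 fold change of −1.15 ± 0.30 passed (adjusted p = 0.0183) but did not pass in DESeq2 (adjusted p = 0.245), without ERG CKO 2 (0.0817), without WT 2 (0.240) or without cells holding platelet UMIs (0.0570). These calls stand against 10.3% of 6962 genes called in aCap ECs (4.77% higher and 5.52% lower). Tie1 was at 249 and 210 against 180 and 155 CPM (−0.46 ± 0.20, adjusted p = 0.175), and Ptprb at 428 and 131 against 374 and 227 CPM (0.15 ± 0.36, adjusted p = 0.881). The Ptprb value was 1.17 without WT 1 and turned below 0 without WT 2 (−0.52) and without ERG CKO 1 (−0.27), so it rested on single libraries. In WT 1 a single aCap cell held 60 of the 139 Ptprb UMIs.

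The subtype results depend on which cells were called aCap and gCap. Summed aCap markers in the aCap cells were 14090 and 14310 CPM in WT and 4794 and 6559 CPM in ERG CKO, and summed gCap markers in the gCap cells were 8709 and 8667 CPM in WT and 6236 and 6813 CPM in ERG CKO. ERG CKO cells under both names thus had less of the markers that gave the name. When the libraries were clustered without alignment, 1 cluster of 561 ECs, of which 300 and 253 were ERG CKO and 1 and 7 were WT cells, was named aCap by the same rule. The values in the remaining gCap cells were then −0.31 for Tek (adjusted p = 0.659) and 0.24 for Angpt2 (adjusted p = 0.935), with 3 genes called in all. A further cluster of 118 ECs, with 42 and 69 WT cells against 4 and 3 ERG CKO cells, was also named aCap. In the joined aCap cells Tek was −0.15 (adjusted p = 0.739) and Angpt2 was 6.21 and passed. That comparison set WT cells mainly from the smaller cluster against ERG CKO cells mainly from the larger, so it does not check the aligned aCap result. The values over all ECs do not depend on this division: without alignment Tek and Angpt2 both passed in ECs. With the aCap cells left out of all ECs, an alternative chosen after seeing the data, Tek was −0.91 (adjusted p = 0.0190) and Angpt2 2.12 (adjusted p = 0.0210).

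Arterial ECs (16 to 23 cells per library) and venous ECs (20 to 70 cells) had no member called. In edgeR 0% of 2540 genes passed in arterial ECs and 0.0218% of 4580 in venous ECs, and no member had an unadjusted p under 0.05 in either or was called by DESeq2. Arterial Tek was at 491 and 571 CPM in WT and 388 and 362 CPM in ERG CKO (−0.49 ± 0.29, adjusted p = 0.807). Venous Tek was at 495 and 491 CPM in WT and 317 and 491 CPM in ERG CKO (−0.40 ± 0.27, adjusted p = 0.741), with overlap. Angpt2 had 1 UMI in each genotype among arterial ECs. Among venous ECs it had 3 and 12 UMIs in WT and 16 and 14 in ERG CKO, at 14.7 and 37.6 against 26.6 and 104 CPM, and was too low to be tested in both subtypes.

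Across the tested subtypes in WT, which leave out lymphatic ECs, Tek was highest in gCap ECs (623 and 666 CPM) and lowest in aCap ECs (77.0 and 98.1 CPM). Arterial and venous ECs lay between and did not differ beyond their spread (491 and 571 against 495 and 491 CPM). Ptprb was at 2824 and 3135 CPM in arterial, 2929 and 2554 CPM in venous and 2597 and 2307 CPM in gCap ECs, with overlap between neighbours, and at 428 and 131 CPM in aCap ECs. Tie1 ranged from 210 CPM in WT 2 aCap ECs to 366 CPM in WT 1 arterial ECs.

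**Figure D4:**
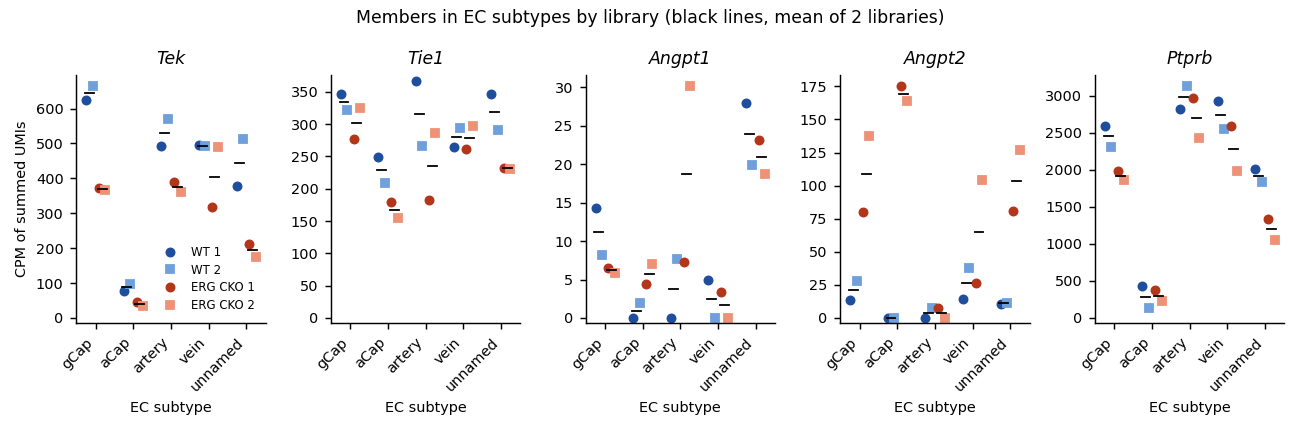
CPM of each gene is plotted by EC subtype, with 1 point per library (blue, WT; red, ERG CKO) and a black line at the mean of each genotype. Angpt2 is at 0 in both WT aCap libraries and at 175 and 164 CPM in ERG CKO, Tek is lower in ERG CKO in gCap and aCap ECs, and arterial Angpt2 stays near 0 in all 4 libraries. Unnamed are clusters that no subtype markers named.

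The genotype effect was compared between aCap and gCap ECs in 1 model, in which 6.39% of 9255 genes differed. Angpt2 was called (adjusted p = 0.000121), but its aCap side rests on the ERG CKO libraries alone. The fitted difference of 8.41 on the log2 scale is set by the prior count that stands in for the 0 UMIs of WT aCap ECs. It is no measure of size, and the call by itself does not show that the effects differ. The effect on Tek was not shown to differ (−0.32 ± 0.28, adjusted p = 0.653), nor was that on Tie1 (−0.28 ± 0.21, adjusted p = 0.568) or Ptprb (0.60, adjusted p = 0.244). The Ptprb difference was 1.44 without WT 1, 0.90 without ERG CKO 2 and −0.07 without WT 2, so it moved with single libraries.

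The gCap ECs in which an Angpt2 UMI was found had less Tek and Ptprb in ERG CKO, a pattern that the WT cells did not show. In ERG CKO, Tek was at 212 and 202 CPM in the 86 and 93 gCap cells with an Angpt2 UMI and at 419 and 453 CPM in the 331 and 206 cells without one. In WT, the 19 and 43 cells with an Angpt2 UMI had 528 and 731 CPM of Tek and the 405 and 439 cells without one had 628 and 659 CPM. Ptprb showed the same order in ERG CKO, 1470 and 1315 CPM with against 2133 and 2142 CPM without Angpt2. Tie1 was at 278 and 296 CPM with and 277 and 340 CPM without Angpt2 in ERG CKO, values that overlapped. Apln, which encodes the peptide ligand apelin and is normally an aCap marker in lung, was at 355 and 258 CPM in ERG CKO gCap cells with an Angpt2 UMI and at 28.1 and 14.6 CPM in those without, against 0 to 11.2 CPM in all WT gCap cells. The ERG CKO cells with an Angpt2 UMI were somewhat deeper (median 4980 and 4600 UMIs against 4712 and 4051), and since detection grows with depth these cells are a description and not a class. The gCap cluster led by Igfbp3 held 111 of the 360 Angpt2 UMIs of ERG CKO gCap ECs but 88 of their 1303 Tek UMIs. The order within single gCap clusters was not tested. In ERG CKO aCap cells Tek did not follow Angpt2, at 46.0 and 32.6 CPM with and 48.8 and 34.5 CPM without an Angpt2 UMI.

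**Figure D5:**
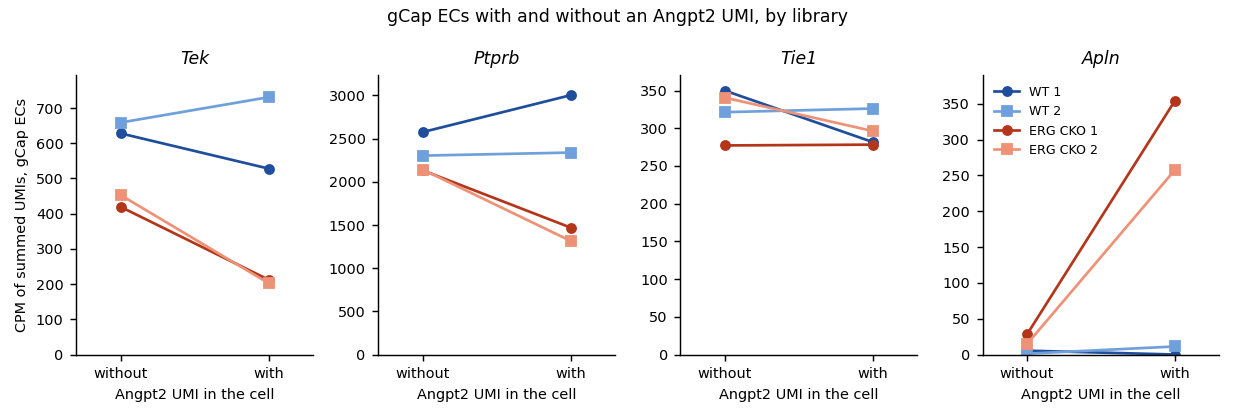
CPM of Tek, Ptprb, Tie1 and Apln in gCap ECs without and with an Angpt2 UMI, 1 line per library (blue, WT; red, ERG CKO). The ERG CKO lines drop for Tek (419 and 453 to 212 and 202 CPM) and Ptprb and climb for Apln, while the WT lines of Tek go in opposite directions.

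Among the source classes, mural cells (71 and 50 WT cells, 49 and 17 ERG CKO cells) and fibroblasts (140 and 75, 176 and 27) had no member called. In edgeR 0.0661% of 4541 genes passed in mural cells and 0.631% of 7928 in fibroblasts, and DESeq2 called 0 members in both. An unadjusted p under 0.05 was seen for 2 of the 5 members in mural cells and 1 in fibroblasts. The share of all genes at that p is not given here, so these counts are no result about the members. Angpt1 in mural cells was at 303 and 317 CPM in WT (162 and 79 UMIs) and at 175 and 252 CPM in ERG CKO (39 and 9 UMIs). Both ERG CKO values were below the WT values, but the log2 fold change of −0.67 ± 0.33 did not pass (adjusted p = 0.834). Angpt2 in mural cells was at 101 and 128 CPM in WT and 62.7 and 84.0 CPM in ERG CKO, the reverse of its order in ECs, and did not pass (−0.74 ± 0.41, adjusted p = 0.920). Ptprb in mural cells was at 1416 and 1047 CPM in WT and 627 and 504 CPM in ERG CKO (−1.09 ± 0.33, adjusted p = 0.585), and its value was −0.96 without ERG CKO 2. The ERG CKO mural cells had median depths of 2288 and 1044 UMIs against 5361 and 3330 in WT, so the 9 and 3 UMIs of Angpt1 and Angpt2 in ERG CKO 2 limit what could be detected.

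Angpt1 in fibroblasts was at 245 and 167 CPM in WT and at 151 and 263 CPM in ERG CKO, with full overlap (−0.12 ± 0.28, adjusted p = 0.980); the last value rests on 53 UMIs, 24 of them from 1 cell. In platelets it was at 149 and 208 CPM in WT and 118 and 117 CPM in ERG CKO (−0.59 ± 0.43, adjusted p = 0.9997), where edgeR called 0% of 1600 genes, 1 member had an unadjusted p under 0.05 and DESeq2 called 0. That count at an unadjusted p again has no share of all genes beside it. Tek in fibroblasts was at 166 and 228 against 142 and 104 CPM (−0.57 ± 0.25, adjusted p = 0.538), Tie1 at 107 and 90.8 against 140 and 89.2 CPM, and Ptprb at 758 and 738 against 1009 and 773 CPM.

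Outside these classes, edgeR called Ptprb higher in ERG CKO dendritic cells, where 0.734% of 5044 genes passed. Ptprb was at 3.45 and 7.72 CPM in WT (1 and 3 UMIs) and at 70.2 and 77.7 CPM in ERG CKO (85 and 44 UMIs), with a log2 fold change of 3.60 ± 0.48 (adjusted p = 0.00615). No other member had enough UMIs to be tested there, and Ptprb entered the test through the ERG CKO libraries, so the call by itself does not show a rise. A single cell held 32 of the 85 UMIs in ERG CKO 1 and a single cell 33 of the 44 in ERG CKO 2. Summed EC markers in dendritic cells were 86.2 and 193 CPM in WT and 339 and 441 CPM in ERG CKO and platelet markers 72.4 and 90.1 against 355 and 1001 CPM, and their part in the Ptprb value was not tested. Without ERG CKO 2 it did not pass (3.55, adjusted p = 0.268). In proliferating cells, where 0% of 6684 genes passed in edgeR, the receptors were at 24.6 and 10.8 against 52.2 and 44.8 CPM for Tek and 22.9 and 8.13 against 78.2 and 94.0 CPM for Tie1, and Ptprb was at 86.8 and 51.5 against 511 and 237 CPM. None of the 3 was called there (adjusted p = 0.520, 0.130 and 0.110), all 3 had an unadjusted p under 0.05, and DESeq2 called Ptprb (adjusted p = 0.00394). The shares of all genes at that unadjusted p and in DESeq2 are not given here, so neither is a result about the members. EC markers summed to 812 and 412 CPM in WT and 2984 and 1146 CPM in ERG CKO proliferating cells.

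Over all cells of the suspension, where the number of cells of a type and the RNA per cell cannot be told apart, no member passed in edgeR, which called 0% of 14154 genes and 1077 at an unadjusted p under 0.05. Angpt2 was at 8.97 and 9.25 CPM in WT and 28.7 and 36.5 CPM in ERG CKO (1.83 ± 0.17, adjusted p = 0.0871), and Tek at 131 and 152 against 93.4 and 76.8 CPM (−0.74 ± 0.15, adjusted p = 0.320). Both had an unadjusted p under 0.05, the genotypes did not overlap for either, and DESeq2 called both (adjusted p = 9.89e-10 and 0.0142). The share of all genes that DESeq2 called is not given here, so its calls have no background. Angpt1 was at 31.9 and 16.1 CPM in WT and 18.4 and 10.5 CPM in ERG CKO (−0.71 ± 0.38, adjusted p = 0.787), Tie1 at 81.6 and 85.9 against 86.2 and 78.6 CPM and Ptprb at 591 and 563 against 591 and 417 CPM.

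A list of 39 further genes of the pathway was followed in ECs, of which 33 could be tested, 1 rose and 2 fell, beside 2.99% of all genes. Of the 33, 15 had values above 0 and 18 below, with a median log2 fold change of −0.05, beside 0.01 over all genes tested. Among ligands, receptor partners and sheddases 0 of 6 tested passed, among adaptors and kinases 1 of 17, among junction partners of Ptprb 0 of 4, and among FOXO factors and targets 2 of 6.

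Grb14, an adaptor protein that binds activated Tek, fell, from 44.97 and 43.0 CPM in WT ECs to 11.1 and 16.4 CPM in ERG CKO ECs (−1.76 ± 0.21, adjusted p = 0.0111). In WT most of its EC UMIs lay in aCap ECs (70 of 121 and 102 of 137), and in ERG CKO fewer did (11 of 51 and 11 of 44). Its aCap level was 216 and 196 CPM in WT, and 16.2 and 19.4 CPM in ERG CKO. Cited2, a transcriptional co-regulator among the FOXO targets, fell from 122 and 152 CPM to 64.7 and 57.7 CPM (−1.19 ± 0.15, adjusted p = 0.0128). Apln rose from 53.9 and 60.9 CPM to 91.8 and 93.0 CPM (0.65 ± 0.13, adjusted p = 0.0474), a call that was lost without WT 1 (adjusted p = 0.289), without WT 2 (0.136) and in DESeq2 (0.151). The summed Apln level hid opposite orders: in aCap ECs it was at 382 and 352 CPM in WT and 202 and 171 CPM in ERG CKO, and in gCap ECs at 5.16 and 2.17 CPM in WT and 101 and 98.6 CPM in ERG CKO.

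Other pathway genes, 4 of which are named here after their values were seen, did not pass. Mmp14, a membrane protease that can shed Tek, was at 14.5 and 10.7 CPM in WT and 25.4 and 28.7 CPM in ERG CKO (1.07, adjusted p = 0.0531). Itgb3, an integrin subunit, was at 5.20 and 7.53 against 27.4 and 13.4 CPM (1.67, adjusted p = 0.0809). Foxo1, the transcription factor that Tek signalling restrains and that drives Angpt2, was at 108 and 101 against 104 and 75.2 CPM (−0.24, adjusted p = 0.585), and Cdh5, the VE-cadherin gene, at 1900 and 1831 against 1460 and 1623 CPM (−0.31, adjusted p = 0.246).

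Genes were also ranked by the likeness of their pattern to each member over 17 cell classes and EC subtypes, as Pearson's r of log2(CPM + 10) across 7340 genes, a description in which classes share libraries and free RNA. Tek was followed most closely by Acer2 (r = 0.995), Plvap, Palmd, Ptprb and Tmem2, and Ptprb by Tek (r = 0.989), Plvap, Tinagl1, Palmd and Adamts1. Tie1 was followed by Pcdh17 (r = 0.994), Egfl7, Clec14a, Sox7 and Calcrl. The ligands had looser matches, Ppp1r14a (r = 0.910), Gucy1b3, Ddr2, Sdc2 and Fxyd1 for Angpt1, and, among others, Csgalnact1, Frmd6, Nostrin and A4galt for Angpt2.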

How the data were processed

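Single-cell RNA-seq (10x Genomics) was performed by the authors on dissociated, red blood cell-lysed lungs of 2 WT and 2 ERG CKO mice. The deposited matrices hold UMI counts per gene and cell, made per the labels' processing notes with Cell Ranger 3.1.0 on mm10, and no cell annotation was used; how barcodes were filtered and whether strand was used were not given in the sources used here. All 9363 deposited cells were kept, more than the study kept after a quality filter whose limits it does not state, and 66 cells (0.705%) called as doublets by Scrublet in scanpy 1.11.5 were left out only as an alternative. Libraries were aligned and clustered in Seurat 5.3.0, without the 5 members. Cell classes were named where at least 3 markers were each in at least 10% of cells at a log2 fold of at least 1 over other cells. ECs were clustered again without 364 genes, the 320 called in ECs among them, with the members, pathway genes that are no naming markers, Erg and sex-linked genes. For the EC subtypes a looser rule held, in which a marker counted at any positive log2 fold over other ECs. Exceptions for mural cells, fibroblasts and mixed clusters were set after the clusters were seen.

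UMI counts were summed per library and class and tested with edgeR 4.0.16 (quasi-likelihood, TMM, filterByExpr, no covariate; R 4.3.3), genotype as the only term, adjusted over all genes tested in a class with a threshold of 0.05. Values are log2 fold changes of ERG CKO over WT ± SE. In counts simulated for 10509 genes in ECs, 79.2% of 2-fold decreases, 87.3% of 2-fold increases, 100% of 4-fold changes and 0.213% of unchanged genes were called. Changed genes were drawn only from better expressed genes, above the EC level of Angpt1, and no change under 2-fold was simulated. These shares therefore do not cover Angpt1 or changes as small as those fitted for Tie1 and Ptprb. DESeq2 1.42.0, other size factors, filters, clusterings, thinning, a replicate block and leaving out each library were alternatives. A fit without a library leaves a single library in its group, so the spread then comes from the other genotype alone. Calls gained or lost in such fits are weak evidence. Named genes were the 5 members and Erg, every pathway gene called in ECs (the 3 of smallest p if none), the 5 genes closest in pattern to each member, by correlation over classes of at least 50 cells among genes of at least 50 CPM in one of them, and defining markers; other genes were chosen after their values were seen. The members and lists were chosen with earlier results of these data known. Some genes of the pathway list and of the closest patterns are not reported here.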

Additional observations from a re-analysis of the deposited data

Results flagged for a closer look

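The test of the difference between aCap and gCap ECs called the genotype effect on Angpt2 (adjusted p = 0.000121, edgeR's quasi-likelihood test). Its fitted value of 8.41 on the log2 scale depends on the prior count because WT aCap ECs held no Angpt2 UMI. The call rests on that absence and does not by itself show that the effects differ. The difference was not tested for subtypes named without alignment. Cells of low depth that no markers named, which were not tested as a class of their own, had more Angpt2 in ERG CKO, 100.1 CPM over the summed ERG CKO libraries, with 9.93 and 11.99 CPM in WT and 92.3 and 118 CPM in ERG CKO (2, 2, 46 and 26 UMIs). In the other unnamed cells Ptprb was at 33.5 CPM over the summed ERG CKO libraries, with 15.1 and 6.36 CPM in WT and 17.8 and 49.1 CPM in ERG CKO (8, 4, 8 and 22 UMIs).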

How the results depend on the processing

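Of 713 alternative values with a test, 694 kept their direction, 19 reversed, 16 lost and 37 gained a call; the cause was not tested. With ECs chosen by markers per cell, 0 members passed in ECs (Tek −0.87, Angpt2 2.07). Without a library, 1 to 3 members passed in ECs (Tek −1.04 to −0.91, Angpt1 −0.48 to 0.27, Ptprb −0.67 to −0.34, Erg −0.16 to 0.26), 2 to 5 in subtypes (gCap Tek −0.89 to −0.80, aCap Tek −1.45 to −0.92, aCap Ptprb −0.52 to 1.17), 1 to 3 in source classes (Tie1 −1.44 to 0.17 in mural cells and −0.21 to 0.50 in fibroblasts, fibroblast Angpt1 −0.46 to 0.29, Angpt2 −0.31 to 0.57), 0 to 1 over all cells (Angpt2 1.66 to 2.01, Tie1 −0.097 to 0.056, Ptprb −0.46 to 0.035), 1 to 2 in the subtype difference (Ptprb −0.074 to 1.44) and 2 to 6 pathway genes. Single values were Ptprb in aCap ECs −0.27 and −0.52, mural Tie1 0.07 and 0.17, fibroblast Angpt1 0.29 and 0.23, and Tie1 over all cells 0.043 and 0.056. Without alignment, gCap Tek was −0.31 and Angpt2 0.24, aCap Tek −0.15, venous Tie1 0.0052 and EC Angpt1 0.10. Without cells holding a platelet UMI, aCap Tek was −1.06, fibroblast Angpt1 0.16 and Angpt2 −0.14, with 0 calls in source classes. DESeq2 gave aCap Tek −1.15, Tek −0.73 and Angpt2 1.84 over all cells, with 2 calls there and 2 in source classes. Without a filter, Ptprb in ECs was −0.48 (adjusted p = 0.00959), Angpt2 over all cells 1.83 (adjusted p = 0.00113), with 1 call there, 3 in source classes and 7 in the pathway list. Thinned to 2000 UMIs, Angpt2 over all cells was 1.98 with 1 call there, 0 calls in source classes, venous Tie1 0.018, and Angpt1 UMIs were, as means of unlike libraries, 32.0% (WT) and 12.3% (ERG CKO) mural and 30.1% fibroblast in ERG CKO. Unthinned, 83.4% of WT and 57.5% of ERG CKO ECs held Tek, 72.0% and 69.0% Tie1, 3.62% and 4.52% Angpt1, 6.42% and 29.7% Angpt2, and 93.1% and 87.6% Ptprb.

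Replicate numbers are shared between genotypes, but the labels do not say what they mark; in ECs both libraries numbered 1 had Xist and no Ddx3y UMIs, and both numbered 2 the reverse. Same-numbered libraries deviated together (r = 0.249 over 10691 genes in ECs), and with the number as a replicate block Ptprb passed in ECs (−0.49, adjusted p = 0.0126) and in gCap ECs (−0.39, adjusted p = 0.00539), with 3 calls in source classes and 8 in the pathway list; 7 of 50 results changed their call. Over all genes in ECs, 320 calls became 1093 with the block, 1156 without the filter, 0 with markers per cell, 781 and 756 without ERG CKO 1 and 2, and 109 and 120 without WT 1 and 2. Having 2 libraries per genotype and few UMIs (Angpt1 in ECs, ligands in ERG CKO mural cells) limits what could be detected.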
